A study of Mus musculus with 3 samples.

Results

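The cathepsins and other lysosomal proteins described here are 10 genes of microglia, the resident macrophages of the spinal cord. They were taken by symbol from the 27998 genes of the count matrix, and all 10 were present: Ctsb, Ctsl, Ctss, Ctsz, Ctsd, Lgmn, Cst3, Cd68, Lamp1 and Lamp2. All 10 also passed the filter on low values used for the comparisons, a mean level of at least 50 CPM (counts per 1000000 unique molecular identifiers, UMIs). Cst3, which encodes cystatin C, a secreted inhibitor of cysteine proteases, was the most abundant of the 10. In library 1 it was also far above its level in the other two libraries.

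Lysosomes are acidic compartments in which cells degrade what they take up and what they no longer need, and microglia rely on them to clear debris, synaptic material and dead cells. Most lysosomal proteases are made as inactive precursors and are activated in the acid lumen by cleavage, legumain being one of the enzymes that process cathepsins. Cystatins bind cysteine cathepsins that escape the lysosome and block them. Heavily glycosylated membrane proteins line the inner face of the lysosomal membrane.

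The cells came from the lumbar cord of Cx3cr1-creER-yfp/+ heterozygous mice on the C57BL/6 strain, in which the Cx3cr1 locus drives a tamoxifen-inducible Cre and a yellow fluorescent protein in microglia and other cells that express Cx3cr1. YFP (+) cells were sorted from naive mice and from mice 24 h and 48 h after sciatic nerve transection, an injury that cuts the axons of sensory and motor neurons far from the cord. The cords of 3 animals were pooled for each group, the ages were given only as young adult, and each group was 1 library. All 3 groups carried the same reporter allele, so no group lacked it. The question the design poses is how microglia differ between the naive cord and the first 2 days after nerve injury, in particular as they enter the cell cycle.

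The matrix held 7522 cells, and the suffix of each cell barcode (1, 2 or 3) named its library. The sources used here did not tie a suffix to a time point, so the libraries are called library 1, 2 and 3, of unknown time point, and no value below is a level at a named time. Library 1 held 609 cells with a median of 2218 UMIs, library 2 held 3591 cells with 5952 and library 3 held 3322 cells with 5742. Libraries 1 and 2 shared 5 barcode sequences, libraries 1 and 3 shared 3, and libraries 2 and 3 shared 19. Library 1 thus stood apart in cell number and depth. Library 3 stood apart in the immediate early genes, with a summed level of 30408 CPM against 2996 CPM in library 1 and 3488 CPM in library 2. The summed level of 10 microglia markers lay between 23395 and 27658 CPM. Of the lists for 9 other cell types, the astrocyte list, with nearly all its UMIs from Slc1a3, was at 105 to 159 CPM and the oligodendrocyte list at 142 to 151 CPM. The astrocyte list was the higher in library 1 and the oligodendrocyte list in libraries 2 and 3. The other 7 lists were each below 37 CPM in every library, and Cd163, Lyve1, Ly6g, Cd3e and Cldn5 had no UMI in any cell. With 1 library for each group there was no replicate, so no test between groups was made, and cells were not treated as replicates.

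Levels were set at equal depth unless all UMIs of a cell are named. Each cell with at least 2000 UMIs was thinned at random to 2000 UMIs, which kept 408, 3569 and 3284 cells of libraries 1, 2 and 3. Intervals are exact 95% Poisson intervals for a level and exact conditional intervals for a ratio, and they cover counting error only. A difference was called where it passed 1.5-fold in either direction. The assay counts the 3′ end of each transcript once, so levels of different genes were compared without a correction for length.

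The members were looked up in a table of promoters from RefSeq (build GRCm38.p6), each 250 bases before to 50 bases after a start site, to see what they share besides being lysosomal. Of the 10 members, 9 matched, with 10 promoters, since Lgmn has 2; Ctsb was not matched. The E-box CACGTG is the core of the motif bound by TFEB and related factors, which drive lysosomal genes. It reads the same on both strands, and it was present in 2349 of 32851 promoters in the table (7.15%). Among the members, 1 promoter each of Ctsd, Ctsl, Lamp1 and Lgmn held it, 4 of 10 promoters. Lamp1 carried 4 copies between 61 and 15 bases before its start, and Ctsd carried 2, at 245 and 98 bases. The stretches around these copies are shown because they are a sequence feature that 3 of the 6 proteases and 1 of the membrane proteins have in common. Capitals mark CACGTG and each sequence is written in the direction of transcription:
Lamp1, chr8:13159088-13159160 (+): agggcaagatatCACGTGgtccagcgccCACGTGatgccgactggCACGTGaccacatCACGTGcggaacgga
Ctsd, chr7:142388055-142388077 (-): tccccCACGTGacctgtatccag
Ctsd, chr7:142387908-142387937 (-): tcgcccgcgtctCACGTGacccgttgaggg
Ctsl, chr13:64370739-64370768 (-): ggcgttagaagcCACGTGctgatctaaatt
Lgmn, chr12:102439124-102439153 (-): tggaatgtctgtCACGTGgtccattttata
The second Ctsd site is also a match to the palindrome TCACGTGA, which 0.974% of all promoters held. Of the other letters searched on both strands, TGACTCA, the site of AP-1 factors, was in 5.20% of all promoters and, of the members, in that of Cd68 alone, with 2 copies at 149 and 24 bases before the start. GAGGAAGT, the core of the PU.1 site, was in 3.20% of all promoters and in that of Ctss, at its start site. The promoters of Cst3, Ctsz and Lamp2 held none of these letters in this window. A match is a description of letters and not of binding.

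**Figure D1:**
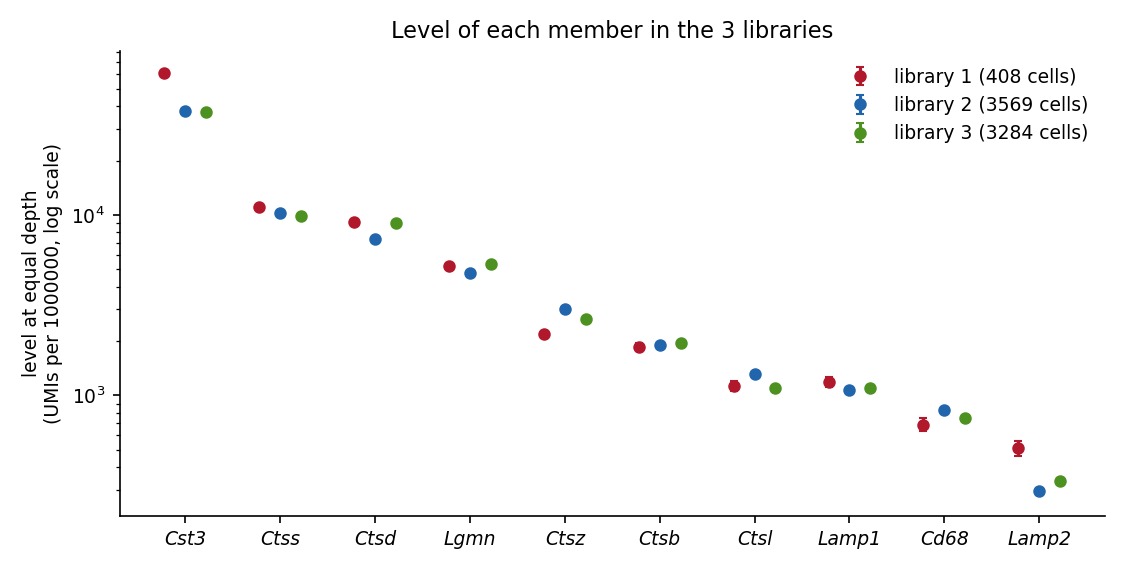
Level of each member at equal depth (CPM, log axis) in the 3 libraries, with exact 95% Poisson intervals, ordered by the level in library 2. Cst3 sits above all other members in each library, and library 1 stands above the others for Cst3 (61386 CPM against 37404 and 37161) and Lamp2 (511 CPM against 295 and 335).

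The order of the levels was nearly the same in the 3 libraries. Cst3 was first, followed by Ctss, Ctsd, Lgmn, Ctsz and Ctsb, and Lamp2 was last, each neighbouring pair with intervals that did not overlap. Only Ctsl and Lamp1 changed places, and their intervals overlapped in libraries 1 and 3. Together the 10 genes took 9.42% of all UMIs in library 1, 6.81% in library 2 and 6.94% in library 3, and without Cst3 the other 9 took 3.29%, 3.07% and 3.22%. The plot of levels by library shows that most members lay within a narrow band across libraries, apart from Cst3 and Lamp2.

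The cysteine cathepsins were 4 of the members. Ctss encodes cathepsin S, a protease that stays active near neutral pH and trims the invariant chain of MHC class II. Its level was 11034 CPM in library 1, 10209 CPM in library 2 and 9876 CPM in library 3. Library 1 was highest and library 3 lowest, with no overlap of the intervals, but the log2 ratios to library 1 were only -0.11 for library 2 and -0.16 for library 3. Ctsz (chr2:174427493-174439039), which encodes the carboxypeptidase cathepsin Z, was at 2181, 3004 and 2666 CPM in libraries 1, 2 and 3. It was thus lowest in library 1, with a log2 ratio of 0.46 for library 2 and 0.29 for library 3, the highest of the members in both comparisons.

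Ctsb encodes cathepsin B, an endopeptidase that is abundant in macrophages. It was at 1865, 1905 and 1962 CPM, and the intervals of its ratios to library 1 reached 0 on the log2 scale in both comparisons. Ctsl encodes cathepsin L, a broad endopeptidase. It was at 1126, 1309 and 1095 CPM, so that library 2 was above the other libraries, with a log2 ratio of library 3 to library 2 of -0.26 (95% interval -0.30 to -0.21). The 4 cysteine cathepsins summed to 1.62%, 1.64% and 1.56% of the UMIs in libraries 1, 2 and 3, a nearly constant total from members that differed in direction.

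The other 2 proteases had their lowest level in library 2. Ctsd (chr7:142375911-142388038) encodes cathepsin D, the main aspartic protease of the lysosome, and was at 9085 CPM in library 1, 7375 CPM in library 2 and 9058 CPM in library 3. Libraries 1 and 3 had overlapping intervals, and library 2 was below both, with a log2 ratio of -0.30 to library 1. The log2 ratio of library 3 to library 2 was 0.30 (0.28 to 0.31), the highest of any member in that comparison. Lgmn encodes legumain, which cleaves after asparagine. It was at 5188, 4736 and 5349 CPM, again lowest in library 2, with a log2 ratio of library 3 to library 2 of 0.18.

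Cst3 (chr2:148871722-148875692) was at 61386 CPM in library 1, 37404 CPM in library 2 and 37161 CPM in library 3. Its level in library 2 was 0.609 of that in library 1 (log2 ratio -0.71, -0.73 to -0.70), and in library 3 it was 0.605 of it (-0.72, -0.74 to -0.71). Libraries 2 and 3 differed by -0.01 on the log2 scale. The ratio of Cst3 UMIs to the summed UMIs of the 6 proteases was 2.01, 1.31 and 1.24 in libraries 1, 2 and 3.

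The 3 membrane glycoproteins were the least abundant group, at 0.238%, 0.220% and 0.219% of the UMIs in libraries 1, 2 and 3. Lamp1, a major protein of the lysosomal membrane, was at 1180, 1074 and 1106 CPM, with little difference between the libraries. Lamp2 (chrX:38401357-38456454), whose protein is needed for the fusion of autophagosomes with lysosomes, was at 511 CPM in library 1, 295 CPM in library 2 and 335 CPM in library 3. It was thus highest in library 1, and the log2 ratios to library 1 were -0.79 (-0.95 to -0.64) for library 2 and -0.61 (-0.76 to -0.45) for library 3. The interval of the second reached inside 1.5-fold. Cd68 encodes the macrosialin of macrophage late endosomes, widely used as a marker of phagocytic microglia. It was at 688, 829 and 748 CPM, highest in library 2, with a log2 ratio of 0.27 (0.14 to 0.40) to library 1.

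**Figure D2:**
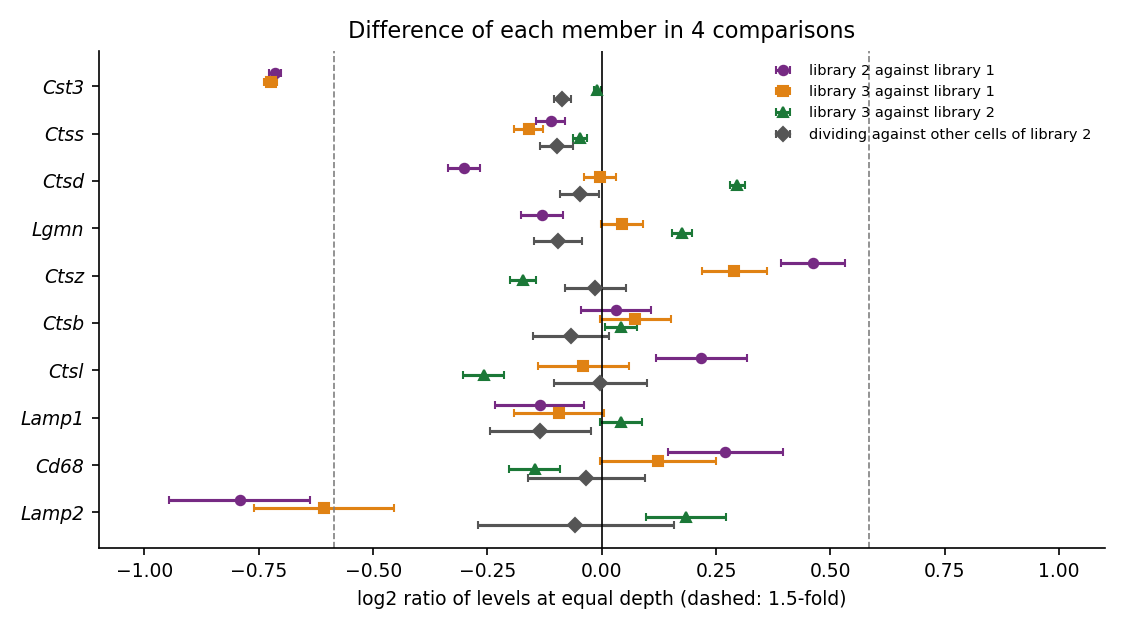
Log2 ratio of the levels at equal depth for each member in 4 comparisons, with exact 95% intervals of counting error; dashed lines mark 1.5-fold. Only Cst3 and Lamp2 lie past the line, at -0.71 and -0.79 for library 2 against library 1 and -0.72 and -0.61 for library 3 against library 1.

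Across all genes, library 1 differed widely from the others. Of 3251 genes at the low-value filter, 23.9% lay past 1.5-fold between library 2 and library 1, 12% higher and 11.9% lower in library 2. Of the 10 members, 2 lay past it, Cst3 and Lamp2, both lower in library 2, a share close to the background. Between library 3 and library 1 the background was 23.5% of 3249 genes (10.6% higher and 12.9% lower in library 3), and the members past the fold were again Cst3 and Lamp2. Of 8 alternatives, 1, a cell filter, changed no value. The call of Lamp2 in this comparison was lost under 3 of the 8. Its log2 ratio was -0.42 when cells were thinned to 3000 UMIs and -0.57 with median-of-ratios scaling. With totals without mitochondrial, ribosomal, immediate early and heat shock genes it was -0.56. Between library 2 and library 1 the call of Lamp2 was lost at 3000 UMIs, at -0.51. These comparisons share library 1. Between libraries 3 and 2, where 7.24% of 3176 genes lay past 1.5-fold (4.28% higher and 2.96% lower in library 3), no member did, and the log2 ratios ran from -0.26 for Ctsl to 0.30 for Ctsd. The median log2 ratio of the members was -0.12, -0.02 and 0.02 for these comparisons, against -0.03, -0.04 and -0.02 over all genes at the filter.

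The level of Cst3 in library 1 did not rest on few cells. The median cell of library 1 held 122 Cst3 UMIs among its 2000, against 74 in library 2 and 73 in library 3. Of the 408 cells of library 1, 281 (68.9%, exact 95% binomial interval 64.1 to 73.3%) were above 104, the 95th percentile of both other libraries. Because library 1 was also the shallowest, the cells of each library were divided by total UMIs into 4 depth classes of equal size, with levels from all their UMIs. In library 1 Cst3 was at 57490, 55340, 60085 and 66827 CPM from the shallowest to the deepest class. Every class of library 1 was above every class of library 2, which ran from 32775 to 39353 CPM, and of library 3, which ran from 36845 to 37153 CPM. Lamp2 was at 479 to 527 CPM in the depth classes of library 1 and at 277 to 347 CPM in those of the other libraries. The deepest class of library 1 (2646 to 5471 UMIs) overlapped in range with the shallowest class of library 2 (1720 to 4825 UMIs). Cst3 was at 66827 CPM in the former and 38738 CPM in the latter. These classes were not matched in depth, since only 69 cells of library 1 held at least 3000 UMIs. Of the 3591 cells of library 2, 3486 did. The part that depth or other differences between library 1 and the others play in the result was not tested.

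**Figure D3:**
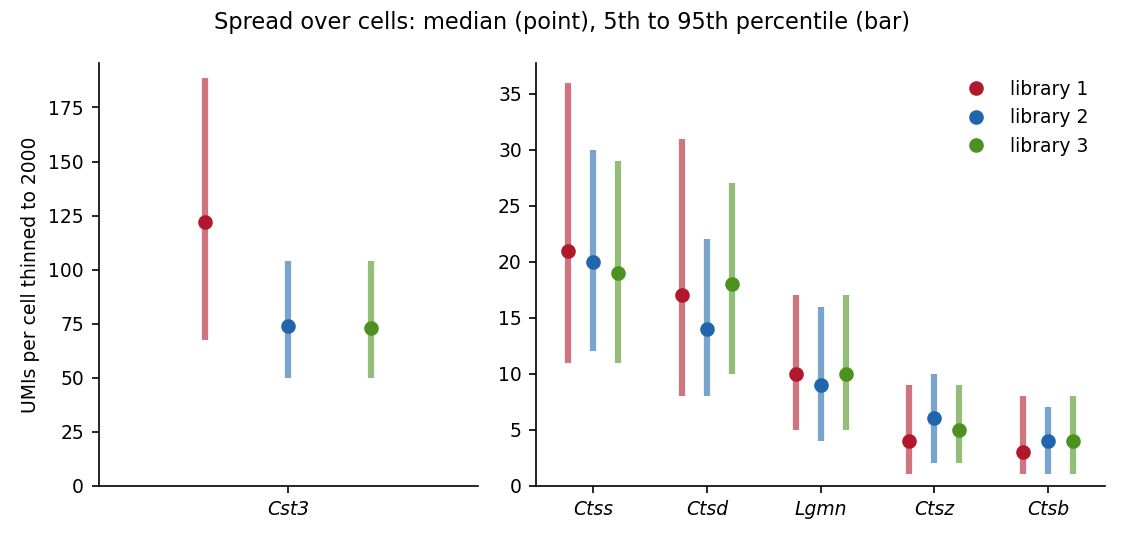
UMIs per cell thinned to 2000 UMIs for Cst3 (left) and the 5 next most abundant members (right), with the median as a point and the 5th to 95th percentile as a bar. The bars of library 1 are the longest for Cst3, Ctss and Ctsd, and the Cst3 median of 122 in library 1 lies above the bars of libraries 2 and 3, which end at 104.

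The members also varied more from cell to cell in library 1. The ratio of variance to mean of the thinned UMIs, which is near 1 when only counting error is present, was highest in library 1 for all 10 members at this depth. For Cst3 it was 10.97 in library 1, 3.95 in library 2 and 3.66 in library 3. For Ctsd it was 2.80, 1.30 and 1.54, and for Ctsb it was 2.02, 1.13 and 1.16. Ctsz was spread in library 1 (1.67) and close to counting error in libraries 2 (1.05) and 3 (1.02). The gap was small for Lgmn, at 1.24, 1.24 and 1.16, and for Lamp2, at 1.05, 0.988 and 1.03. The 5th to 95th percentile of Cst3, drawn in the plot of UMIs per cell, ran from 67.3 to 189 in library 1 and from 50 to 104 in libraries 2 and 3.

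Correlations between members across cells were mostly weak, and the cells of each share a library and a depth. Over the 45 pairs of members, the median of Pearson's r was 0.09 over the 408 cells of library 1, 0.05 over the 3569 of library 2 and 0.04 over the 3284 of library 3. The pair of Ctss and Cst3 had r of 0.35, 0.29 and 0.27, the highest pair in libraries 2 and 3. In library 1 the highest pair was Ctsb and Ctsz, with r of 0.47, where libraries 2 and 3 had 0.05. Of the genes that were not members, those whose thinned UMIs correlated best with the summed members included Itm2b, B2m, P2ry12 and C1qb in library 2 (r of 0.31 to 0.25 over 3167 genes) and B2m, C1qb, Itm2b and C1qa in library 3 (r of 0.26 to 0.21). C1qa and C1qb encode chains of complement C1q, and P2ry12 encodes a purine receptor of microglia. All are abundant in these cells. In library 1 C1qb (r of 0.52) and Itm2b (0.45) correlated best with the summed members, above the values of libraries 2 and 3. In the sum of the members Cst3 weighs most, since it held more UMIs than the other 9 members together in each library.

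Cells were then divided by the genes of division, with lists that hold no lysosomal gene. A thinned cell with a UMI of at least 2 of 32 such genes (11 of DNA replication, 21 of mitosis) was called dividing, and a cell with none was called other. Library 2 held 2488 dividing cells (69.7%), 335 other cells (9.39%) and 746 cells with exactly 1 such gene. Library 3 held 171 dividing cells (5.21%) and library 1 held 8, too few for a value. Mki67, a gene of cycling cells, had a UMI at full depth in 18.5% of the other cells of library 2 and in 40.2% of the dividing cells. Cells of the cycle were thus present in both classes, and 863 cells lay at the threshold of 2 genes.

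In library 2 every member was slightly lower in dividing than in other cells, with log2 ratios between -0.13 for Lamp1 and -0.004 for Ctsl. Cst3 was at 36671 CPM in dividing cells and 38945 CPM in other cells, a log2 ratio of -0.09 (-0.11 to -0.07). Ctss was at 10034 and 10746 CPM (-0.10, -0.13 to -0.06), and Lgmn at 4684 and 5009 CPM (-0.10). The intervals of Ctsb, Ctsl, Ctsz, Cd68 and Lamp2 reached 0. No member lay past 1.5-fold, where 1.27% of 3159 genes did (0.791% higher and 0.475% lower in dividing cells). The median log2 ratio of the members was -0.06, and that of all genes at the filter was 0.0002, with 1578 of the 3159 below 0. Of the 72 other lysosomal genes at the filter, 44 were below 0. The same was true of 8 of 10 microglia markers (median -0.07) and 11 of 12 immediate early genes (median -0.08). A small fall was thus not particular to the members.

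The difference was larger in cells with more mitosis genes. The 3569 cells of library 2 were ordered by how many of the 21 mitosis genes had a UMI in the thinned cell, a division that was chosen after the values of the classes were seen. Cst3 was at 38555 CPM in the 773 cells with none, 38718 CPM in the 1200 cells with 1, 37536 CPM in the 823 cells with 2, 35214 CPM in the 555 cells with 3 to 4 and 31170 CPM in the 218 cells with 5 to 11. The last group was below all others, with a log2 ratio to cells with none of -0.31 (-0.33 to -0.28). Of 3249 genes at the filter, 13.1% had a ratio at or below that of Cst3, and the median over these genes was 0.03. The same share was 20.7% for Ctsd and 26.3% for Ctss, and over all members it ran from 7.48% for Lamp2 to 35.7% for Ctsz. Ctsd was at 7506 CPM in cells with none and 6472 CPM in those with 5 to 11 (-0.21, -0.27 to -0.15). Ctss was at 10545 and 9440 CPM in these groups (-0.16), and Lamp2 at 468 against 100 UMIs in all had a log2 ratio of -0.40 (-0.73 to -0.09).

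All 10 members were below the level of cells with none in the cells with 5 to 11 mitosis genes, but for Ctsb and Ctsz the interval reached 0. The share of all genes that were below 0 is not given here. From 7.48% to 35.7% of the 3249 genes had a ratio at or below that of a member, so many other genes fell as much. These are shares of a cell's UMIs. The median total at full depth was 5706 UMIs in cells with none and 9494 in cells with 5 to 11, and the mean Cst3 UMIs of a cell at full depth were 237 and 302. A lower share thus went with more Cst3 UMIs for each cell, and the same held for Ctsd, at 46.2 and 64.2 UMIs.

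**Figure D4:**
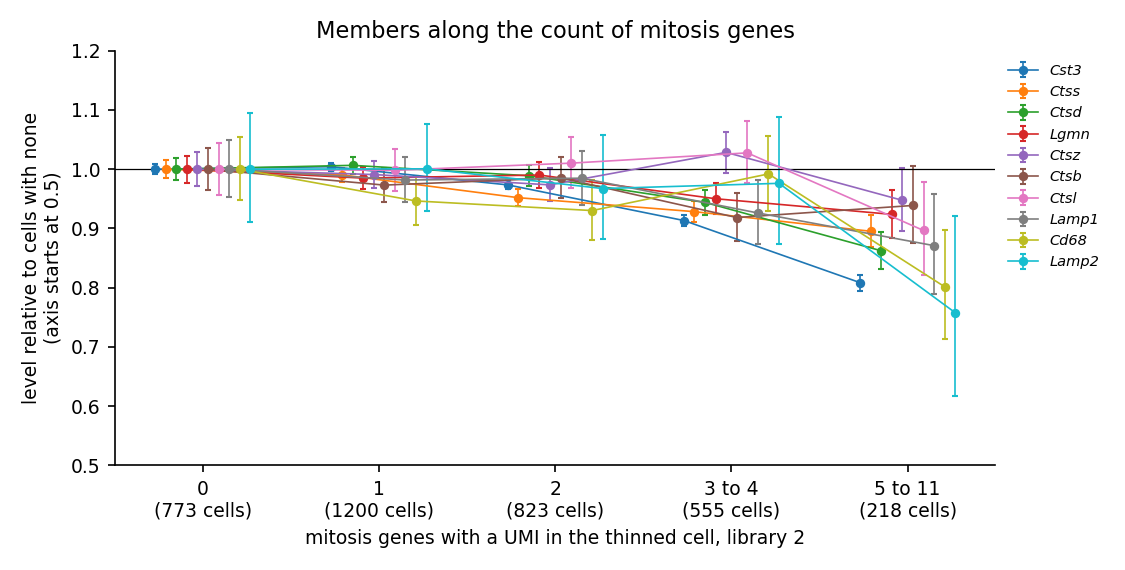
Level of each member in library 2, relative to cells with no mitosis gene, in 5 groups of cells by the number of mitosis genes with a UMI in the thinned cell; bars are exact 95% Poisson intervals and the axis starts at 0.5. Cst3 goes from 38555 CPM with none to 31170 CPM with 5 to 11 genes, and the intervals are wide for Lamp2 and Cd68.

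In library 3, Mki67 had a UMI at full depth in 2.92% of the 171 cells called dividing and in 0.306% of the other cells. Both were below the 18.5% in the other cells of library 2, so the name of the class holds less well here. The log2 ratios of these dividing cells to other cells ran from -0.13 for Ctsl to 0.03 for Lamp1. All 10 intervals reached 0. For Cst3 the ratio was -0.03 (-0.05 to 0.001), an interval that did not reach the -0.09 of library 2. The intervals of Ctss and Lamp1 also ended short of their values in library 2, by under 0.01 on the log2 scale. Those of the other 7 members included theirs. The values of library 2 have intervals of their own, for Cst3 -0.11 to -0.07. All these intervals leave out the spread over cells, where the variance of Cst3 was 3.95 times its mean in library 2 and 3.66 times in library 3. Whether the libraries differ in this contrast was not tested. The dividing classes of the libraries were not alike: 12 of 171 cells in library 3 and 1596 of 2488 in library 2 had at least 2 mitosis genes. In library 2 Cst3 was at 35859 CPM in those 1596 cells and 38124 CPM in the remaining 892 dividing cells, against 38945 CPM in other cells.

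In library 2 depth moved with division, and so did the shares of several members. The summed level of the mitosis genes was 706 CPM in the shallowest depth class of its cells and 1595 CPM in the deepest, and Cst3 was at 38738 and 32775 CPM in these classes. Ctsd was at 7567 and 6810 CPM, whereas Ctsl was at 1225, 1263, 1327 and 1392 CPM from the shallowest to the deepest class. In library 3, whose deepest class had 48.5 CPM of mitosis genes, Cst3 was at 37153 and 36845 CPM in the shallowest and the deepest class. Ctsd was lower in the deepest class there too, at 9193 and 8668 CPM, and so was Lamp2, at 347 and 306 CPM. The log2 ratios of the remaining members of library 3 ran from -0.05 for Cd68 to 0.03 for Ctss. Depth and division cannot be told apart in these classes of library 2.

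The immediate early genes, which rise within minutes of stimulation or of cell handling, separated library 3 from the others, so cells were also divided by these genes into 3 classes of equal size. In library 3 Cst3 was at 38838 CPM in the lowest class of cells, 37135 CPM in the middle class and 35510 CPM in the highest, a log2 ratio of -0.13. The largest of the other members in this comparison were Cd68 at -0.12, Ctsl at -0.11 and Ctsb at -0.09, while Ctsd was at 0.07. The same ratio of Cst3 was -0.11 in library 1, at 63228 CPM in the lowest and 58540 CPM in the highest class, and -0.01 in library 2. In library 1 Ctsl and Cd68 went the other way, at 0.30 and 0.19, and Ctsb was at -0.10. The ratios of Ctsl, Cd68 and Ctsb in library 2 were 0.02, 0.02 and 0.04. Within library 3 the early genes averaged 36.6 thinned UMIs for each cell in the lowest class and 86.9 in the highest.

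The rest of the lysosome was read from lists of 130 other genes, of which 72 were at the low-value filter in the comparisons with library 1. Between library 2 and library 1, 1 of the 72 was past 1.5-fold higher and 9 were lower in library 2, against 12% and 11.9% of all genes at the filter. The lowest ratios were those of Rnaset2b and Rnaset2a, lysosomal ribonucleases, at -1.57 and -1.41 on the log2 scale. They are near-identical copies whose reads the counting could split, so the level of each is uncertain. Both were lower in library 2, Rnaset2b at 237 against 707 CPM and Rnaset2a at 346 against 920 CPM. Cd9, a tetraspanin of late endosomes and the cell surface, followed, at 1039 against 1784 CPM (-0.78).

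Between library 3 and library 1, 1 gene was higher and 11 were lower in library 3, against 10.6% and 12.9% of all genes. Slc15a3, a transporter of peptides and histidine in the endolysosomal membrane, was at 409 CPM in library 3, 136 CPM in library 2 and 203 CPM in library 1. It was the only one of 70 lysosomal genes past 1.5-fold higher in library 3 than in library 2, where Npc1, a cholesterol transporter (49.5 against 77.1 CPM), and Tpcn1, a cation channel (48.0 against 74.4 CPM), were past it and lower. Of all genes, 4.28% were higher and 2.96% lower in that comparison. By group, the 13 subunits of the proton pump (V-ATPase) at the filter had median log2 ratios of 0.13, 0.06 and 0.02 in the 3 comparisons. Of these subunits, Atp6ap2 alone lay past 1.5-fold, and only just, at 1.51-fold lower in library 2 than in library 1. The 16 other membrane proteins had medians of -0.39 and -0.36 against library 1. Of the 8 other cathepsins and lysosomal proteases, Ctso alone lay past 1.5-fold, at 93.5 CPM in library 3 and 141 CPM in library 1. It was only just past the line, at 1.502-fold, and library 2, at 94.3 CPM, lay just inside it, at 1.490-fold. Between dividing and other cells of library 2, none of the 72 lay past 1.5-fold, and their median log2 ratio was -0.03.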

How the data were processed

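Counts of UMIs for each gene and cell were deposited by the authors as 1 matrix of whole numbers that joins 3 libraries. The submitters' processing notes name Cell Ranger 2.1.1 and mm10; the role of each is not given in the sources used here, and neither is a filter on cells or a removal of doublets beyond the gates of the sort. The labels name a later kit version than the methods. No doublet caller was run. Members and lists were chosen with earlier results of these data known. Cells with at least 2000 UMIs were thinned to 2000 UMIs without replacement (seed 1) with numpy 2.4.6, scipy 1.17.1 and pandas 2.3.3 under Python 3.11.15. Levels are CPM of thinned UMIs, and log2 ratios used a pseudocount of 1 CPM, which understates differences of low genes. Genes named besides the members were the 3 highest and 3 lowest of the other lysosomal lists past 1.5-fold, and the 5 that correlated best with the members; some genes that this rule names are not reported here. Atp6ap2, Ctso and the genes of the activated state were named after their values were seen. Cell cycle phases of an alternative were scored with Seurat 5.3.0 under R 4.3.3. Counts were simulated from the mean profile of libraries 2 and 3, with depths of library 2 and counting error only. With 200 genes changed by 2-fold, 95.5% of them were called in the true direction, and 2.10% of unchanged genes were called, over 3154 genes. The depth of library 1 and its spread over cells were not simulated. Library totals were 1343055, 24097543 and 19769170 UMIs. Alternatives were another depth of thinning or none, another seed, a cell filter, other scalings, another pseudocount, no low-value filter and other rules for the dividing class. Gene positions are from GENCODE M21 (GRCm38).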

Additional observations from a re-analysis of the deposited data

How the results depend on the processing

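No paired analysis was possible because each group was 1 library and the barcode suffixes carried no replicate number. No library was left out, as each comparison holds 1 library a side. Cst3 stayed past 1.5-fold below library 1 under each of 8 alternatives, though 1 of these, the cell filter, changed no value. It was at -0.88 to -0.67 on the log2 scale for library 2 and -0.90 to -0.67 for library 3. Lamp2 ran from -0.79 to -0.51 and from -0.76 to -0.42. Only 1 member was then past the fold in place of 2 when cells were thinned to 3000 UMIs (69 cells of library 1), in both comparisons, and, for library 3 against library 1, with median-of-ratios scaling and with totals without mitochondrial, ribosomal, immediate early and heat shock genes. The count of other lysosomal genes past 1.5-fold went from 10 to 17 between libraries 2 and 1 and from 3 to 5 between libraries 3 and 2 at 1000 UMIs, and to 1 in the latter with a pseudocount of 10. Between dividing and other cells it went from 0 to 19 with division genes counted at full depth, which left 23 other cells, to 1 at 3000 UMIs and to 2 in library 3. Without the low-value filter the share of all genes past 1.5-fold was 36.5%, 37.5%, 14.8% and 24.3% in the 4 comparisons. At 3000 UMIs, 8 of 10 members had their highest ratio of variance to mean in library 1. Of 120 member values for dividing against other cells, 16 had the other sign. No member past the fold changed sign. The contrast of mitotic with other cells and the groups by number of mitosis genes were chosen after seeing the data. Depth limits library 1 most: 201 of its 609 cells were below 2000 UMIs.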

Other observations

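A few cells of library 1 held genes of an activated state together with high Ctsb and Ctsz. The list for that state was drawn up after these values were seen: Lpl, Cst7, Axl, Itgax, Spp1, Lgals3, Gpnmb, Igf1 and Csf1. In library 1, 8 of 408 thinned cells (1.96%, exact 95% binomial interval 0.850 to 3.83%) had a UMI of at least 2 of these 9 genes, against 95 of 3569 (2.66%) in library 2 and 38 of 3284 (1.16%) in library 3. In the 8 cells of library 1 Ctsb was at 5625 CPM (4523 to 6914) against 1714 CPM in the 346 cells with none, and Ctsz was at 5500 CPM (4411 to 6776) against 2064 CPM. Ctsl was 1.91 times its level in cells with none, Cd68, from 19 UMIs, 1.78 times and Ctsd 1.39 times. Ctss, Lgmn, Lamp1 and Lamp2 were at 0.898 to 1.09 times. The 8 cells were also deeper, with a median of 3586.5 UMIs at full depth against 2467.5 in cells with none. Apoe, a lipid carrier that is not on the list, was at 15875 CPM in the 8 cells and 478 CPM in those with none, and the chemokine gene Ccl4 was at 3750 CPM in the 8 cells.

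The cells with at least 2 of the genes in libraries 2 and 3 had other levels of these genes. There Ctsb was 1.28 and 1.22 times its level in cells with none, against 3.28 times in library 1, Ctsz was 1.02 and 1.04 times, against 2.67, and Apoe was at 1179 and 1132 CPM. Cst3 was at 0.779 of its level in cells with none in library 1. Without the 8 cells, r of Ctsb and Ctsz in library 1 was 0.34 in place of 0.47, and the ratio of variance to mean of Ctsb was 1.64 in place of 2.02, so both stayed above the values of libraries 2 and 3. The sum of Ctsb and Ctsz reached 42 UMIs in 1 thinned cell of library 1, with a median of 7, and at most 29 and 30 UMIs in libraries 2 and 3, with medians of 10 and 9. Of the 20 cells of library 1 with the highest sum, 5 had at least 2 activation genes, against 3 of 20 in library 2 and 2 of 20 in library 3. The levels in the activated cells of library 1 come from 8 cells of 1 library, and no test was made.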
